A study of Mus musculus with 18 samples.

Results

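Ccr7 and 8 other receptors that steer dendritic cells and their relatives through tissue were followed across mouse cells with and without an activated BRAF kinase. The 9 genes were Ccr7, Ccr1, Ccr2, Ccr6, Cx3cr1, Cxcr4, Ackr3, S1pr1 and Gpr183. They were chosen by name, with earlier results of these data known, from the 19752 genes with 1 symbol on a 1-colour expression array. Counts of called receptors beside shares of all genes are therefore only descriptions. Each was read by 1 probe set, and 8 of the 9 passed a filter on dim signals and were tested among 15365 genes.

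The 18 arrays fell into 8 groups of 2 genotypes and 4 cell populations. All mice carried the allele that the labels write as BRAFV600E(CA-flox), and the genotypes differed in Cre. Littermates of genotype CD11c-Cre(neg), called WT here, kept the allele silent. In mice with CD11c-Cre, called BRAF here, a Cre driven by the CD11c promoter switched it on in CD11c-expressing cells, so the model is set by where and when that promoter acts. BMDC, cells grown from femur marrow of mice aged 5 weeks and sorted live as CD11c+CD11b+, had 3 arrays per genotype and were cultured without treatment. The 3 organ populations, CD11b cells of liver and both CD11b and CD103 cells of lung, sorted from dissected organs of unmanipulated mice aged 14 weeks, had 2 arrays per genotype each. The sources used here do not say whether replicates were separate animals or cultures. P-values therefore measure only the spread between these arrays, which may be technical, and so few arrays limit the precision.

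As background, CCR7 is the receptor that brings mature dendritic cells from tissue into lymphatic vessels and lymph nodes along its ligands CCL19 and CCL21. CCR1, CCR2, CCR6, CX3CR1 and CXCR4 guide blood cells, monocytes and immature dendritic cells into and within tissue, and ACKR3 takes up CXCL12 without classical G protein signalling. S1PR1 reads sphingosine 1-phosphate during exit from tissue into blood or lymph, and GPR183 (EBI2) reads oxysterols that position dendritic cells in lymphoid organs.

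Values are log2 of the deposited intensity, called signal here, and a difference of 1 is a 2-fold change in intensity. Array medians lay between 93.7 and 113.2 in intensity, and 2 arrays had a narrow spread of log2 values, with interquartile ranges of 1.90 and 1.92 against 2.41 to 2.99 on the other 16. These were BRAF BMDC replicate 2 and WT liver CD11b replicate 3. The markers followed the labels of the lung CD103 groups. The mean of 11 markers of type 1 dendritic cells was 11.24 to 11.55 on WT and 10.91 to 11.16 on BRAF lung CD103 arrays, and at most 8.50 on every array of the other populations. Itgam, which encodes CD11b, was at 6.87 and 6.90 on the WT and at 8.39 and 8.21 on the BRAF lung CD103 arrays, and at 9.32 to 11.92 elsewhere.

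Ccr7 signal in BRAF cells was below that of WT cells by 3.81-fold in BMDC, 8.64-fold in CD11b and 4.10-fold in CD103 cells of the lung, and each of these differences passed the test. In liver CD11b cells the difference ran the same way, at 2.33-fold, and did not pass it. All other receptors tested missed the threshold in each population. The test was limma over all 8 groups with Benjamini-Hochberg adjustment over all genes, and a gene was called at an adjusted p below 0.05.

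In BMDC the Ccr7 signal was 9.53, 9.16 and 9.78 on the WT arrays and 7.50, 8.03 and 7.15 on the BRAF arrays. The highest BRAF array lay below the lowest WT array. The difference was -1.93 ± 0.28 (SE, n = 3 and 3; limma, adjusted p = 0.00464), and 1 of 8 receptors was called where 0.521% of all genes were.

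Lung CD11b cells gave the widest gap of the 4 populations. Their Ccr7 signal was 10.51 and 10.70 in WT and 7.37 and 7.62 in BRAF, with nothing between. The difference was -3.11 ± 0.34 (SE, n = 2 and 2; limma, adjusted p = 0.00141). Ccr7 was again the 1 receptor of 8 called, against 0.338% of all genes.

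For lung CD103 cells Ccr7 was at 10.01 and 10.68 on the WT and 7.86 and 8.75 on the BRAF arrays, so the groups did not overlap but the arrays within each lay further apart. The difference of -2.03 ± 0.34 (SE, n = 2 and 2) passed with limma at an adjusted p of 0.0421, where 0.0846% of all genes were called and 1 of 8 receptors was. This call was the least firm. It was lost without WT lung CD103 replicate 3 (-1.70, limma adjusted p = 0.351) and without BRAF lung CD103 replicate 1 (-1.59, limma adjusted p = 0.671), and under the settings given in the closing section.

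Liver CD11b cells had the lowest Ccr7 signal of the 4 WT populations, 8.03 and 8.37, and their BRAF arrays were at 7.11 and 6.85. The groups did not overlap here either, but in liver this was also so for Ccr6, Cxcr4, S1pr1 and Gpr183. In lung CD11b cells it was so for every tested receptor except Ccr2. The share of all genes without overlap was not counted, so these counts show nothing particular to the receptors. The difference was -1.22 ± 0.34 (SE, n = 2 and 2; 95% interval -1.95 to -0.49 before adjustment), with a limma adjusted p of 0.171. By limma 0 of 8 receptors were called in liver, 2 of them (Ccr7 and Cxcr4) had an unadjusted p below 0.05, as did 14.1% of all genes, and 0.215% of all genes were called.

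**Figure D1:**
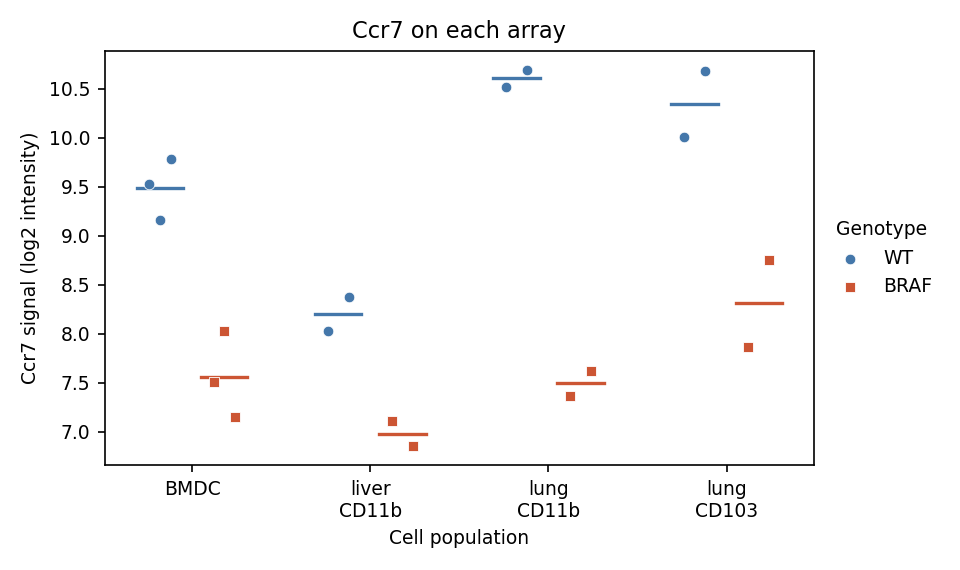
Ccr7 signal (log2 intensity, y axis) on each of the 18 arrays, by cell population (x axis) and genotype; points are arrays and lines are group means. BRAF arrays lie below the WT arrays of their population in all 4, with the widest gap in lung CD11b cells (10.51 and 10.70 against 7.37 and 7.62).

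In sorted cells measured in bulk, fewer Ccr7-expressing cells and less Ccr7 RNA per cell cannot be told apart. Values of other markers also shifted between genotypes, and not only in lung, though few shifts were called. Of 12 conventional dendritic cell markers limma called 1, lower in lung CD11b cells, and 0 in each other population. Of 11 macrophage markers it called 0 in lung CD103 cells. In lung CD11b cells 11 of 12 markers of conventional dendritic cells had a negative difference, with a median of -1.02 (-0.59 without BRAF replicate 1, -1.50 without BRAF replicate 2), and the list mean was 10.62 on both WT arrays and 9.40 to 9.99 on the BRAF arrays. Itgax, which encodes CD11c, was at 11.78 and 11.82 in WT and 11.64 and 12.13 in BRAF lung CD11b cells. In liver CD11b cells 11 of the 12 dendritic cell markers were negative as well, with a median of -0.32 against 0.08 over all genes. Their list mean there was 9.94 to 10.36 on the WT and 9.67 to 9.90 on the BRAF arrays. Negative markers numbered 9 of 12 in lung CD103 cells and 6 of 12 in BMDC. In lung CD103 cells all 11 tested macrophage markers had a positive difference, with a median of 2.12 (1.34 if WT replicate 3 was left out, 3.08 if BRAF replicate 2 was), and their mean was 7.32 to 8.67 on the WT and 9.08 to 10.79 on the BRAF arrays. In lung CD11b cells 6 of the 11 macrophage markers were positive (median 0.04). There 7 of 9 alveolar macrophage markers were positive. Their list mean was 6.75 to 7.27 on the WT and 7.77 to 8.89 on the BRAF arrays. Kupffer cell markers were positive in 9 of 10 (median 0.58), and type 2 dendritic cell markers negative in 7 of 8 (median -0.87). Of these lists limma called 0 genes there. The part of these shifts in the Ccr7 differences was not tested.

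The 5 genes most like Ccr7 over the 18 arrays were Ccl22, Fscn1, Syne2, Mmp25 and Vipr1, with Pearson r of 0.90, 0.90, 0.89, 0.87 and 0.87. Ccl22 is a chemokine of mature dendritic cells and Fscn1 encodes fascin, the actin bundler of their veils. Syne2 encodes a nuclear envelope protein, Mmp25 a membrane-bound matrix metalloproteinase and Vipr1 a receptor for vasoactive intestinal peptide. The arrays share the group structure, so r mostly follows group means. Over deviations from the group means r was 0.46 for Ccl22, 0.61 for Fscn1, 0.10 for Syne2, 0.55 for Mmp25 and 0.10 for Vipr1.

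Fscn1 fell by 2.95 ± 0.36 (SE) on the log2 scale in lung CD11b cells (limma, adjusted p = 0.00224). Its WT arrays were at 9.94 and 9.30 and its BRAF arrays at 6.57 and 6.78. In lung CD103 cells it differed by -1.99 ± 0.36 and just missed the threshold (limma, adjusted p = 0.0573), and in BMDC and liver CD11b cells it differed by -0.99 and -0.94 (limma, adjusted p = 0.313 and 0.282). Ccl22 had negative differences in all 4 populations, of -2.43 in BMDC, -1.71 in liver CD11b, -2.58 in lung CD11b and -1.52 in CD103 cells. No Ccl22 difference was called (limma, adjusted p = 0.0872, 0.300, 0.179 and 1.00).

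The other 3 had differences in lung CD11b cells that were called, but they were chosen for likeness to Ccr7 on these arrays, so their direction, like that of Fscn1 and Ccl22, is no separate evidence. Syne2, Mmp25 and Vipr1 fell there, with differences of -1.10, -1.51 and -1.43 (limma, adjusted p = 0.0467, 0.0451 and 0.0264). Each of these 3 calls was lost when any 1 of the 4 lung CD11b arrays was left out, with adjusted p-values of 0.0639 to 0.524 for Syne2, 0.0815 to 0.465 for Mmp25 and 0.0952 to 0.231 for Vipr1. With probe sets averaged rather than the brightest taken, Vipr1 came to -0.66 there (0.353). Vipr1 was also called in lung CD103 cells (-1.49, limma adjusted p = 0.0436), and that call was lost without WT replicate 1 (0.142) or BRAF replicate 1 (0.671) and with averaged probe sets (-0.87, 0.232).

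A list of 28 genes of mature migratory dendritic cells, chosen with earlier results of these data known, gave 26 tested genes. Negative differences numbered 18 of 26 in BMDC, 22 in lung CD11b cells and 21 in each of the others. In the order BMDC, liver CD11b, lung CD11b, lung CD103 the medians were -0.23, -0.38, -0.63 and -0.37, beside 0.00, 0.08, 0.00 and -0.08 over all genes, and stayed negative under quantile normalization and median centring. Called genes were Fscn1 and Icosl, both lower in lung CD11b cells, and no other member of the list in any population. Icosl, the ligand of the T cell costimulator ICOS, was at 10.32 and 10.27 in WT and 8.24 and 8.82 in BRAF lung CD11b cells (-1.77 ± 0.35 SE, limma adjusted p = 0.0471). Its call was lost without WT replicate 3, WT replicate 1 or BRAF replicate 1 (adjusted p = 0.235, 0.336 and 0.365).

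**Figure D2:**
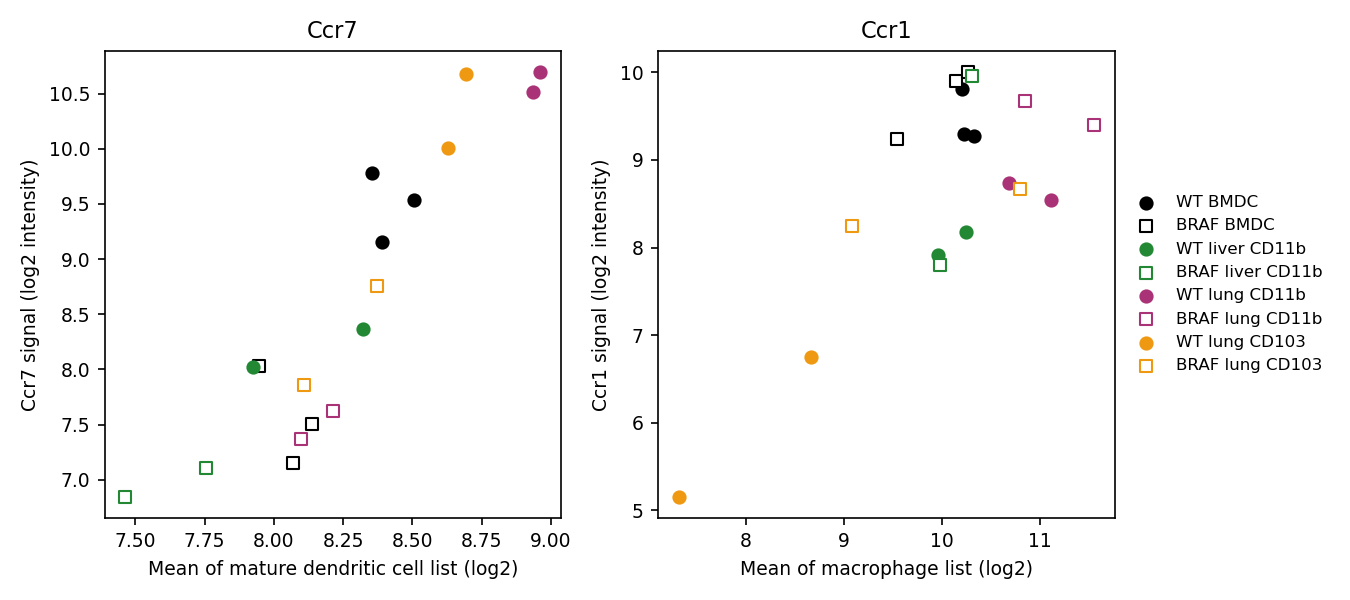
Signal of Ccr7 against the mean of the mature migratory dendritic cell list (left) and of Ccr1 against the mean of the macrophage list (right), all in log2 intensity; each point is 1 of 18 arrays, filled circles are WT and open squares BRAF. WT lung CD11b arrays hold the highest list means (8.93 and 8.96) with Ccr7 at 10.51 and 10.70, beside 10.01 and 10.68 on the WT lung CD103 arrays, and WT lung CD103 arrays the lowest Ccr1 signals (5.16 and 6.75) and macrophage list means (7.32 and 8.67).

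The other 7 tested receptors gave 28 comparisons between genotypes, of which limma called 0, where 0.0846% to 0.521% of all genes were called in the 4 populations. An unadjusted p below 0.05 was seen in 5 of the 28, against a mean of 7.94% of all genes (4.26% to 14.1% by population). Adjusted p-values ran from 0.145 to 1.00. The 5 were Ccr1 in lung CD103, Gpr183 in BMDC and lung CD11b, S1pr1 in lung CD11b and Cxcr4 in liver CD11b cells.

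Ccr1, a receptor for CCL3, CCL5, CCL7 and CCL9 on monocytes, macrophages and neutrophils, had the largest positive difference among the receptors. Its lung CD103 signal was 6.75 and 5.16 in WT and 8.67 and 8.25 in BRAF. The BRAF arrays lay above both WT arrays, 1 of which was below the array's 30th percentile. The difference was 2.51 ± 0.56 (SE, 95% interval 1.31 to 3.70 before adjustment) and did not pass (limma, adjusted p = 0.145). With 1 of the 4 lung CD103 arrays left out the difference ran from 1.71 to 3.30, and was highest without WT replicate 1. The fit without that array called it, as did those without BRAF liver CD11b replicate 2 or 3 at an unchanged 2.51. No other fit with 1 array left out did.

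On the same BRAF lung CD103 arrays the macrophage markers, given above, and 7 of 9 monocyte markers had positive differences. The other 2 monocyte markers had negative ones, and limma called 0 genes of either list. The mean of 9 monocyte markers was 6.90 to 8.34 on the WT arrays and 9.05 to 9.84 on the BRAF arrays. Their median difference was 1.74, and 1.21 to 2.12 with 1 array left out. Adgre1 (F4/80) was at 8.58 and 6.92 in WT and 10.32 and 9.42 in BRAF cells. Their part in the Ccr1 difference was not tested. The 2 genes most like Ccr1 over the 18 arrays were Lilr4b and Lilrb4a, receptors of myeloid cells, with r of 0.95 and 0.94, and 0.89 for both within groups.

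In the other populations Ccr1 varied within genotypes. The liver CD11b BRAF arrays were at 9.96 and 7.80, on either side of the WT arrays at 7.92 and 8.18, and the difference of 0.83 became -0.25 without BRAF replicate 2. In lung CD11b cells Ccr1 was at 8.54 and 8.74 in WT and 9.40 and 9.67 in BRAF, without overlap. That difference was 0.90 ± 0.56 (SE, 95% interval -0.30 to 2.10; limma, adjusted p = 0.950). BMDC gave 0.26 (95% interval -0.72 to 1.23) with overlapping arrays.

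Ccr2, the receptor for CCL2 and CCL7 that brings monocytes out of the marrow, was even across the study. Its signal lay between 10.33 and 11.87 on the 18 arrays, and WT and BRAF arrays overlapped in every population. Differences were -0.32 in BMDC (95% interval -0.98 to 0.34), 0.30 in liver CD11b (-0.51 to 1.11), -0.05 in lung CD11b (-0.86 to 0.75) and -0.61 for the lung CD103 arrays (-1.42 to 0.19). A p that misses the threshold does not show that the genotypes were alike, and each interval includes 0.

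Ccr6, the receptor for CCL20, was dim. It lay between 5.08 and 6.38 and exceeded the array's 30th percentile on 5 of 18 arrays, 4 of them WT. Differences ran from -0.48 in liver CD11b to 0.36 in BMDC cells and none was called (limma, adjusted p = 0.379 and 0.737). The highest array was WT liver CD11b replicate 3, 1 of the 2 arrays of narrow spread, whose 30th percentiles were 6.07 and 6.11 against 5.60 to 5.85 on the others.

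Cx3cr1, the receptor for membrane-bound fractalkine on patrolling monocytes and tissue macrophages, varied mainly with the population. In liver CD11b cells its signal was 10.51 and 10.10 in WT and 10.51 and 10.25 in BRAF. The lung CD11b arrays were at 11.06 and 10.44 in WT and 10.39 and 10.37 in BRAF, a difference of -0.37 (95% interval -1.33 to 0.59). In lung CD103 cells WT was at 8.06 and 6.94 and BRAF at 8.55 and 8.10, a difference of 0.83 (95% interval -0.13 to 1.79; limma, adjusted p = 1.00). BRAF arrays lay below WT in the first lung population and above it in the second. BMDC ranged from 6.51 to 7.31 in WT and 6.75 to 8.19 in BRAF, with the highest value on the narrow-spread array.

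Cxcr4, which holds cells near sources of CXCL12 such as the marrow, was at 10.18 and 10.13 in WT and 10.70 and 11.12 in BRAF liver CD11b cells. The groups did not overlap, and the difference was 0.75 ± 0.32 (SE, 95% interval 0.08 to 1.43; limma, adjusted p = 0.312). In lung CD11b cells the order was the opposite, with 11.16 and 11.32 in WT against 10.86 and 10.98 in BRAF (-0.32, limma adjusted p = 1.00). Lung CD103 arrays overlapped, at 10.19 and 10.03 against 10.84 and 9.53, as did those of BMDC, at 8.57 to 8.88 against 8.60 to 9.02.

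Ackr3 was above the array's 30th percentile on 0 of 18 arrays and was not tested. Its signal lay between 4.76 and 5.77, with the highest value on WT liver CD11b replicate 3. No genotype or population stood out by its group means, which ran from 4.85 to 5.46.

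Gpr183 had a negative difference in all 4 populations and none passed the test. In BMDC its signal was 9.05, 8.92 and 8.84 in WT and 8.41, 7.78 and 8.31 in BRAF, without overlap (-0.77 ± 0.30 SE; limma, adjusted p = 0.608). In lung CD11b cells WT was at 10.28 and 10.21 and BRAF at 8.51 and 9.48. The BRAF arrays were both lower and lay nearly 1 log2 unit apart, and the difference was -1.25 ± 0.36 (SE, 95% interval -2.03 to -0.48; limma, adjusted p = 0.227). With array weights both differences were called, at -0.59 and -1.25 (limma, adjusted p = 0.0157 and 0.0227). Such weights count arrays that deviate from their group less, and the 2 arrays of a lung group deviate equally. Over all 15365 genes they raised the calls from 80 to 1658 in BMDC and from 52 to 369 in lung CD11b cells. The liver CD11b arrays were at 9.88 and 9.95 against 9.69 and 9.46, and those of lung CD103 at 10.47 and 9.93 against 9.30 and 10.48.

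S1pr1 exceeded the array's 30th percentile on 6 of 18 arrays and was dim on the others. Lung CD11b cells had 7.42 and 6.81 in WT and 5.73 and 6.11 in BRAF. The lower of these BRAF arrays, replicate 1, lay below its 30th percentile. All BRAF values lay below WT, and the difference of -1.20 ± 0.45 (SE, 95% interval -2.15 to -0.24) did not pass (limma, adjusted p = 0.494). S1PR1 is abundant on lymphocytes, and the mean of 11 measured B cell markers was 6.71 to 7.61 on the WT and 6.33 to 6.44 on the BRAF lung CD11b arrays, with 9 of the 10 tested differences negative. Ms4a1, which encodes CD20, was at 7.77 and 8.33 against 5.91 and 5.53. Of the B cell markers limma called 0, and their median of -0.72 ran from -1.36 to -0.15 with 1 array left out. The mean of T cell markers overlapped, at 6.27 to 6.49 on the WT and 6.14 to 6.32 on the BRAF arrays, with 5 of 8 tested differences negative. The part of lymphocyte markers in the S1pr1 difference was not tested.

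Elsewhere S1pr1 was at 5.44 and 6.51 against 5.36 and 5.38 in liver CD11b cells, and at 6.74 and 5.59 against 6.13 and 4.71 in lung CD103 cells. In BMDC it ranged from 4.96 to 5.08 in WT and from 5.50 to 5.90 in BRAF, all below the 30th percentile of their arrays. These BMDC values do not overlap, but they lie in the range where the array's background was not measured here.

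**Figure D3:**
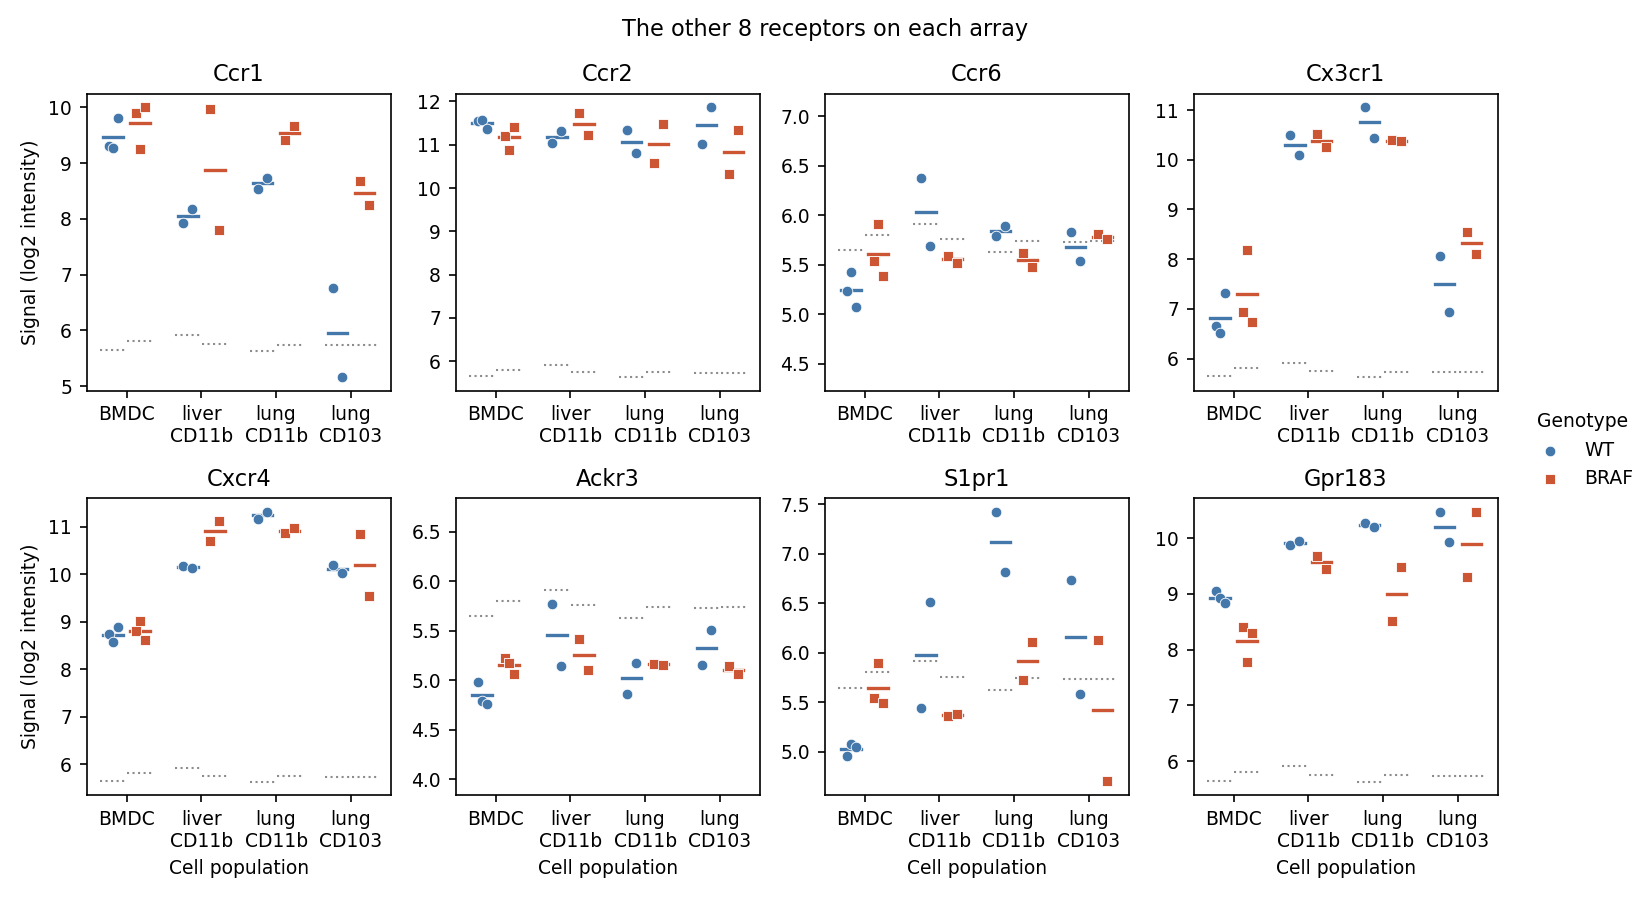
Signal (log2 intensity, y axes) of the 8 receptors other than Ccr7 on each of 18 arrays, by population (x axes) and genotype; points are arrays, lines are group means and dotted lines the mean 30th percentile of the group's arrays. Cx3cr1 lies at or above 10.10 on all liver and lung CD11b arrays and at or below 8.55 on the rest, Ackr3 lies below the dotted line on every array, and Ccr1 in WT lung CD103 cells reaches down to 5.16.

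**Figure D4:**
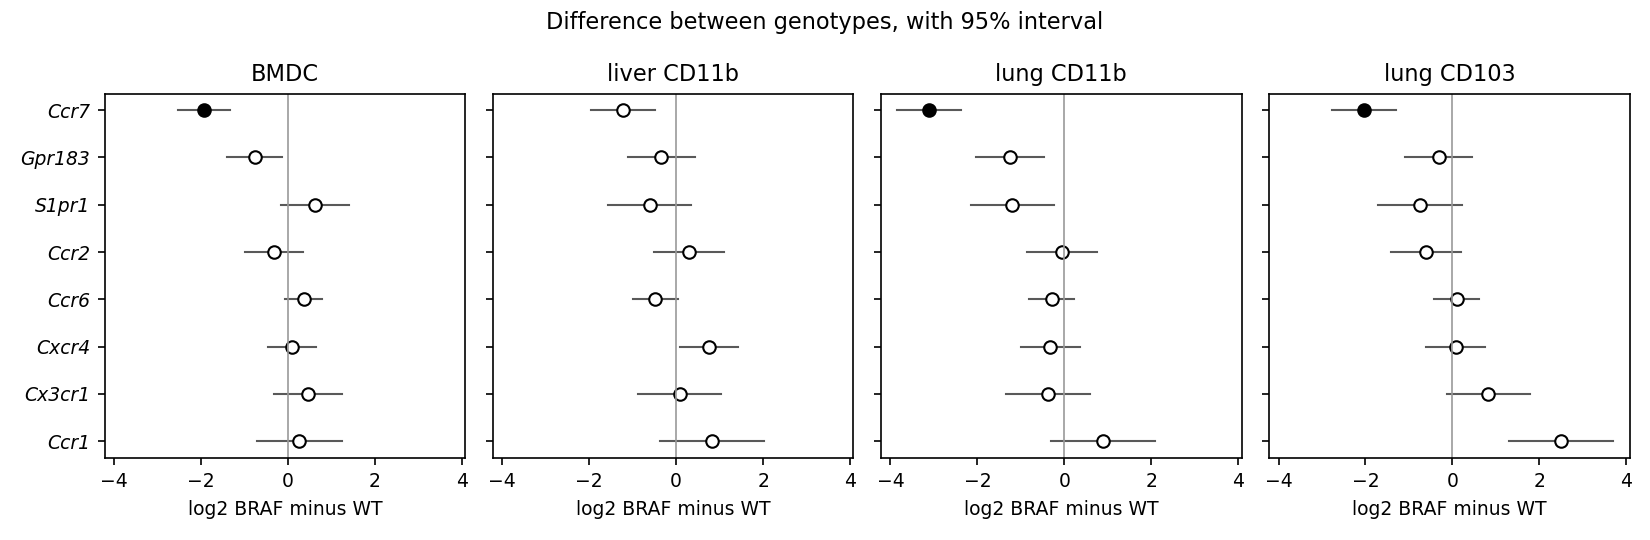
BRAF minus WT difference (log2, x axes) of the 8 tested receptors (rows) in each population (panels); bars are 95% intervals before adjustment and filled circles are called. The 3 filled circles are all Ccr7, at -1.93 in BMDC, -3.11 in lung CD11b and -2.03 in CD103 cells.

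Whether the genotype difference itself varied between the 4 populations was tested with a moderated F test. By limma 0 of 8 receptors were called, where 0.124% of all genes were, and 3 of the 8 had an unadjusted p below 0.05, as 9.1% of all genes did. For Ccr7 the adjusted p was 0.396. Its widest contrast, liver CD11b against lung CD11b, was 1.89 ± 0.48 (SE; limma, adjusted p = 0.460). The called drop in lung CD11b and the uncalled difference in liver cells were thus not shown to differ. The other adjusted p-values ran up to 0.747.

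The level of each receptor was then compared between the 4 populations in WT cells. Culture, organ and age (5 against 14 weeks) differ together between BMDC and the organs and cannot be told apart. Of 48 comparisons (8 receptors, 6 pairs of populations) 18 were called, 2 of them (Ccr6 and S1pr1) against BMDC arrays that all lay below their 30th percentile. BMDC differed from liver CD11b cells in 4 receptors, from lung CD11b cells in 5 and from lung CD103 cells in 3, where 17.2%, 8.14% and 10.9% of all genes were called. Liver CD11b differed from lung CD11b cells in 1 and from lung CD103 cells in 3, against 2.08% and 9.35%, and the lung populations differed from each other in 2, against 3.75%.

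WT Ccr7 was highest in lung CD11b (10.60 ± 0.13, SD, n = 2) and lung CD103 cells (10.34 ± 0.48), then BMDC (9.49 ± 0.31, n = 3), then liver CD11b cells (8.20 ± 0.24). Only the last step between neighbours was called (1.29, limma adjusted p = 0.0134), and it was lost without WT liver CD11b replicate 3 (1.12, limma adjusted p = 0.140) and under quantile normalization (0.85, limma adjusted p = 0.116). The wider gaps of liver CD11b to lung CD11b (2.41, limma adjusted p = 0.00715) and lung CD103 cells (2.14, limma adjusted p = 0.00121) and of BMDC to lung CD11b cells (1.11, limma adjusted p = 0.0396) passed as well. The first of these was lost without WT liver CD11b replicate 3 (0.0769) or WT lung CD11b replicate 1 (0.0848), and the third without any 1 of its 5 arrays (0.0523 to 0.314). Among BRAF groups the means ran from 8.31 in lung CD103 through 7.56 in BMDC and 7.49 in lung CD11b to 6.98 in liver CD11b cells, an order that was not tested.

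WT Ccr1 ran from 9.46 in BMDC through 8.64 in lung CD11b and 8.05 in liver CD11b to 5.95 in lung CD103 cells. The step down to lung CD103 cells was called (2.10, limma adjusted p = 0.0302), but not without WT lung CD103 replicate 3 (1.30, limma adjusted p = 0.269), WT liver CD11b replicate 3 (2.23, 0.128) or WT liver CD11b replicate 1 (1.96, 0.0796). BMDC against lung CD103 cells, a gap of 3.51, passed at a limma adjusted p of 0.000287.

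Cx3cr1 fell into a high pair, lung CD11b (10.75) and liver CD11b (10.30), and a low pair, lung CD103 (7.50) and BMDC (6.83). The step between the pairs was 2.81 (limma, adjusted p = 0.00128) and was called without each of the 4 arrays concerned. The 2 genes most like it over the 18 arrays were Ms4a4c and Ms4a6c (r = 0.96 for both), members of a membrane protein family found in monocytes. For Cxcr4 the order was lung CD11b (11.24), liver CD11b (10.15), lung CD103 (10.11) and BMDC (8.72), with a called step of 1.38 above BMDC (limma, adjusted p = 0.00493). That step missed the threshold without WT lung CD103 replicate 1 (limma, adjusted p = 0.0531).

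Gpr183 was at 10.25, 10.20 and 9.91 in lung CD11b, lung CD103 and liver CD11b cells and at 8.93 in BMDC. Its last step narrowly missed (0.98, limma adjusted p = 0.0545), while BMDC was below lung CD11b cells by 1.31 and below lung CD103 cells by 1.27 (limma, adjusted p = 0.0237 and 0.0210). The first was lost without any 1 of the 5 arrays (up to 0.158), the second without BMDC replicate 2 or 3 or lung CD103 replicate 1 (up to 0.219). S1pr1 ran from 7.12 in lung CD11b to 5.03 in BMDC with no called step between neighbours, and all its BMDC arrays lay below their 30th percentile. The mean of the 2 lung CD11b arrays lay 2.77-fold above those percentiles, which serve as a floor here, with no allowance for their spread. For the signals as measured the limma adjusted p was 0.00466. That call was lost without WT lung CD11b replicate 3, where BMDC minus lung CD11b was -1.79. Ccr6 too was below the 30th percentile on all BMDC arrays and on 1 of 2 liver CD11b arrays, so no size is given for that call. The Ccr6 call (limma, adjusted p = 0.0283) was lost without the narrow-spread liver array (0.354) and without BMDC replicate 1 or 3 (0.0832 and 0.0857). The WT means of Ccr2 lay between 11.07 and 11.49 and no pair of populations was called. Of the 24 neighbours in these orders, 4 differed beyond their spread and 20 did not pass.

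Among the receptors themselves, Cx3cr1 and Cxcr4 had the highest correlation over the 18 arrays (r = 0.86, and 0.42 within groups), and Ccr1 and Gpr183 the lowest (-0.59, and 0.30 within groups). Genes most like the rest were Abca9 and Ms4a6b for Cxcr4 (0.95 and 0.90), Cbfa2t3 and 4930523C07Rik for Gpr183 (0.93 and 0.90), Ets1 and Cmah for S1pr1 (0.88 and 0.86), Btnl2 and Lrrc3 for Ccr6 (0.87 and 0.84), and Trappc13 and Rchy1 for Ccr2 (0.81 for both). These values are descriptions over arrays that share groups.

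Ligands of the receptors came from a list chosen with earlier results known. Of 15 tested, 2 rose in BMDC, Ccl7 and Ccl2, which both bind CCR2. Ccl7 was at 6.48, 6.54 and 6.42 in WT and 11.85, 10.89 and 11.83 in BRAF BMDC (5.04 ± 0.36 SE; limma, adjusted p = 3.54e-06). Ccl2 was at 8.12, 8.15 and 8.70 against 12.28, 12.17 and 12.46 (3.98 ± 0.46 SE; limma, adjusted p = 0.000705). The BRAF arrays stood far above all WT arrays for both ligands, while those of Ccr2 overlapped. In lung CD103 cells Ccl9, a ligand of CCR1, rose by 2.95 ± 0.35 (SE; limma, adjusted p = 0.00484), from 7.73 and 7.18 to 11.04 and 9.77, on the arrays that also had higher macrophage markers. When the other 6 groups were left out of the limma fit the Ccl9 call was lost (adjusted p = 0.373). Ccl19 and Ccl20 lay between 6.32 and 7.60 and between 5.70 and 6.56, and neither was called in any population.

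Receptors outside the 9 did not add calls. Of 12 tested chemokine receptors and 17 tested receptors for other attractants, such as complement peptides and prostaglandin E2, limma called 0 in each population. The chemokine receptors had a median difference of -0.45 in liver CD11b cells with 11 of 12 negative, against 0.08 over all genes, and of -0.30 without the narrow-spread arrays. Their medians elsewhere lay between 0.00 and 0.12. Among 9 tested genes that make or remove the lipid ligands of S1PR1 and GPR183, Ch25h rose in BMDC, and it encodes the first enzyme towards the GPR183 ligand. It was at 7.34, 7.19 and 7.22 in WT and 11.09, 9.22 and 11.02 in BRAF (3.19 ± 0.64 SE; limma, adjusted p = 0.0337). The Ch25h call was kept only without BRAF replicate 2 when 1 of the 6 arrays was left out (adjusted p = 0.0163, otherwise up to 0.194), and it was lost under median centring (0.0708) and when the organ arrays were left out of the fit (0.0579).

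Of 26 tested genes of receptor signalling and trafficking, Rgs1 rose in BMDC and was the only one called in any population. RGS1 shortens signalling by G protein-coupled chemokine receptors. Its signal was 5.91, 5.56 and 6.18 in WT and 8.39, 8.36 and 8.64 in BRAF BMDC (2.58 ± 0.40 SE; limma, adjusted p = 0.00763). Without WT BMDC replicate 2 the adjusted p was 0.0573. In the organ populations Rgs1 lay between 8.94 and 11.01 in both genotypes.

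In RefSeq promoters of GRCm38.p6, 7 of the 9 genes matched, with 8 promoters between them, and Ccr7 and S1pr1 were not among them. The 250 bases before each start were searched on both strands for TGANTCA (AP-1), GGANTTTCC (NF-kB) and CCGGAAGT (ETS). None of the 8 held any of the 3, against 6.75%, 1.07% and 2.88% of 32851 promoters. This says only that these letters are not in this window.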

How the data were processed

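RNA of the 18 samples was extracted with Trizol and biotin-labelled, per the labels' protocols. The authors deposited 1 linear intensity per probe set and array. The background correction, normalization and genome build behind these intensities are not given in the sources used here. Of 24922 probe sets, 21425 had 1 symbol in the platform annotation, 1399 several and 2098 none listed; 21347 matched RefSeq by Entrez ID. The probe set with the highest mean stood for each gene. Log2 of the deposited intensity was taken with no added constant and no further normalization. A gene was kept if at least 2 arrays had it over their own 30th percentile. The fit used limma 3.58.1 (R 4.3.3) with a mean per group and 10 residual degrees of freedom. Genotype contrasts, their differences and contrasts between WT populations were tested, and the code was tested on simulated data. Alternatives were other normalizations, filters, variance models and array weights, a replicate block and left-out arrays.

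The 9 receptors, gene lists and marker lists were chosen with earlier results of these data known. Named were all 9 receptors, the 5 genes most correlated with Ccr7 and 2 for each other tested receptor, at most 4 called genes per list and contrast, and markers beside a result. Further genes, such as Ccl19 and Ccl20 (ligands with a single receptor here), were named after their values were seen. Protein sequences were not used here.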

Additional observations from a re-analysis of the deposited data

How the results depend on the processing

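Ccr7 was called in BMDC and in lung CD11b cells under each of 12 settings, and in BMDC also without any 1 of its 6 arrays. In lung CD11b cells the difference ran from -3.24 to -2.98 with 1 of the 4 arrays left out. The liver CD11b difference was called under none of the settings, and ran from -1.39 to -1.05 with 1 array left out. Fits without an array of another group were not compared for Ccr7. In lung CD103 cells the Ccr7 call was lost under quantile normalization (-1.996, limma adjusted p = 0.0780), median centring (-2.003, 0.0567), array weights (-2.03, 0.0588) and in the fit of only the groups compared (-2.03, 0.535), and ran from -2.48 to -1.59 with 1 array left out. The cause was not tested. With array weights 2 differences of the other receptors were called, and 0 to 1 with 1 array left out. Calls between WT populations numbered 13 to 22, against 18, and the F test called 0 throughout. The Ccr7 step from BMDC to liver CD11b cells was also lost with array weights (1.17, limma adjusted p = 0.0514), without the narrow-spread arrays (1.12, 0.0655) and narrowly with the BMDC block (1.28). The Ccr1 step from liver CD11b to lung CD103 cells was lost with array weights (2.10, 0.0556) and without the narrow-spread arrays (2.23, 0.0944). In lung CD11b cells the Syne2 call was lost under 4 of 12 settings, Mmp25 under 3 and Vipr1 under 1 (limma, adjusted p up to 0.127, 0.0883 and 0.353), and Icosl under median centring (0.0996) and the BMDC block (0.0836). In BMDC Ch25h was lost under 3 (up to 0.0708).

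The replicate block, with numbers fixed within BMDC, gave -2.03 for Ccr7 in lung CD103 cells (limma, adjusted p = 0.0942) and left the calls in BMDC and lung CD11b. Deviations of same-numbered BMDC arrays correlated at 0.47, -0.23 and -0.40, and those of unlike numbers at -0.40 to 0.43. Deviations from the mean of so few arrays depend on each other, so these values cannot decide whether the numbers pair arrays. Lung arrays of 1 number correlated at 0.16 (WT) and 0.22 (BRAF). With 2 arrays per group the deviations mirror each other, so this is 1 value per genotype and no agreement between pairs. A random replicate block on lung kept all 3 calls.

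Under processing settings, with no single array left out, the signs that turned were those of uncalled differences. Under quantile normalization these were Cx3cr1 in liver CD11b (-0.19) and Ccr2 in lung CD11b (0.011) between genotypes, and between WT populations Ccr2, BMDC minus lung CD103 (-0.0078), Ccr6, liver minus lung CD11b (-0.066), and Gpr183, lung CD11b minus lung CD103 (-0.076). Under median centring they were Ccr2, WT liver minus lung CD11b (-0.0094), and Cxcr4, WT liver CD11b minus lung CD103 (-0.025). Without the narrow-spread arrays they were Cxcr4 in BMDC (-0.017), Ccr6, WT liver minus lung CD11b (-0.15), and S1pr1, WT liver CD11b minus lung CD103 (0.35).

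With 1 array left out, signs turned for these uncalled differences, given as ranges. Between genotypes they were, in BMDC, Cxcr4 (-0.017 to 0.19), in liver CD11b cells Ccr1 (-0.25 to 1.91) and Cx3cr1 (-0.12 to 0.28), in lung CD11b cells Ccr2 (-0.50 to 0.40), and in lung CD103 cells Ccr6 (-0.049 to 0.25), Cxcr4 (-0.58 to 0.73) and Gpr183 (-0.90 to 0.28). Between WT populations they were Ccr2 for BMDC minus lung CD103 (-0.38 to 0.47), for liver minus lung CD11b (-0.15 to 0.37) and for liver CD11b minus lung CD103 (-0.69 to 0.16), Ccr6 for liver minus lung CD11b (-0.15 to 0.54), Cxcr4 (-0.039 to 0.13) and S1pr1 (-0.76 to 0.39) for liver CD11b minus lung CD103, and Ccr7 (-0.074 to 0.60) and Gpr183 (-0.23 to 0.31) for lung CD11b minus lung CD103.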
